A study of Homo sapiens with 45 samples.

Results

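Parental Ewing sarcoma cell lines were compared with parental osteosarcoma cell lines across functional classes of genes. Of the 45 RNA-seq libraries in the series, 39 belonged to the comparison, 3 for each of 13 lines. The 6 libraries of A673 cells carrying the inducible sh908 short hairpin, with and without doxycycline, were left out. The Ewing sarcoma group held 7 lines: A673 (labelled A-673), TC71 (TC-71), RDES (RD-ES), SKES1 (SK-ES-1), MHHES1 (MHH-ES-1), EW3 (EW-3) and EW24 (EW-24). The osteosarcoma group held 6 lines: U2OS, SAOS2 (labelled SaOS-2), MG63 (MG-63), G292 (G-292 clone A141B1), HOS-MNNG (MNNG/HOS Cl #5) and KHOS (KHOS/NP). The labels name no treatment for these libraries. Culture conditions were not known here, and their part in any difference was not tested. Each line is the cultured descendant of 1 tumour, and HOS-MNNG and KHOS are both transformed derivatives of the HOS line, so they are not independent tumours. The 3 libraries of a line were summed, and the line was the unit of replication.

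Ewing sarcoma arises in bone or soft tissue, mostly in the young. Its driver is a fusion protein that joins EWSR1 to an ETS transcription factor, and its small round cells show few signs of lineage. Osteosarcoma is a bone tumour whose cells make osteoid, the collagen-rich matrix that osteoblasts lay down, and its genome is rearranged without one shared fusion. Mesenchymal cells attach to matrix through integrins, which link to actin stress fibres, and the transcriptional coactivators YAP and TAZ and the factor SRF read the state of that cytoskeleton.

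In estimated counts, library totals ran from 23132161 to 51413254 for Ewing sarcoma lines and from 15974173 to 44911542 for osteosarcoma lines. Summed line totals ran from 80492078 to 111190338 and from 62586962 to 117692527. Of 21970 genes with enough counts to test, 3151 (14.3%) differed between tumour types at an adjusted p (Benjamini-Hochberg, edgeR quasi-likelihood F test) under 0.05, and these are referred to as called. Of these, 1306 (5.94% of the genes tested) were higher in the Ewing sarcoma lines and 1845 (8.4%) were lower. Levels are given as TPM, transcript abundance scaled for transcript length and library size, averaged over the 3 libraries of a line. For each type the lowest and highest line are given, then the median line, the Ewing sarcoma lines first. Log2 fold changes are given ± their standard error. Line levels did not overlap between the types, every Ewing sarcoma line above every osteosarcoma line, for 699 genes (3.18%), and in the opposite direction for 525 (2.39%). The median log2 fold change over all genes tested was -0.06, and negative values mean lower in Ewing sarcoma lines throughout. In RNA from bulk cultures, fewer cells expressing a gene and less RNA per cell cannot be told apart.

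The first principal component of log2 CPM, counts scaled to library size, held 35.4% of the variance and separated the tumour types. On it, the Ewing sarcoma lines lay between 73.15 and 134.95 and the osteosarcoma lines between -156.16 and -89.14, with A673 and U2OS nearest to the other type. The second component, with 11.7%, spread the osteosarcoma lines, from U2OS at -97.52 to KHOS at 143.79. Across genes, Spearman's rank correlation between lines had a median of 0.914 over the 21 Ewing sarcoma pairs, 0.876 over the 15 osteosarcoma pairs and 0.816 over the 42 mixed pairs. The highest of all, 0.967, was between HOS-MNNG and KHOS.

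**Figure D1:**
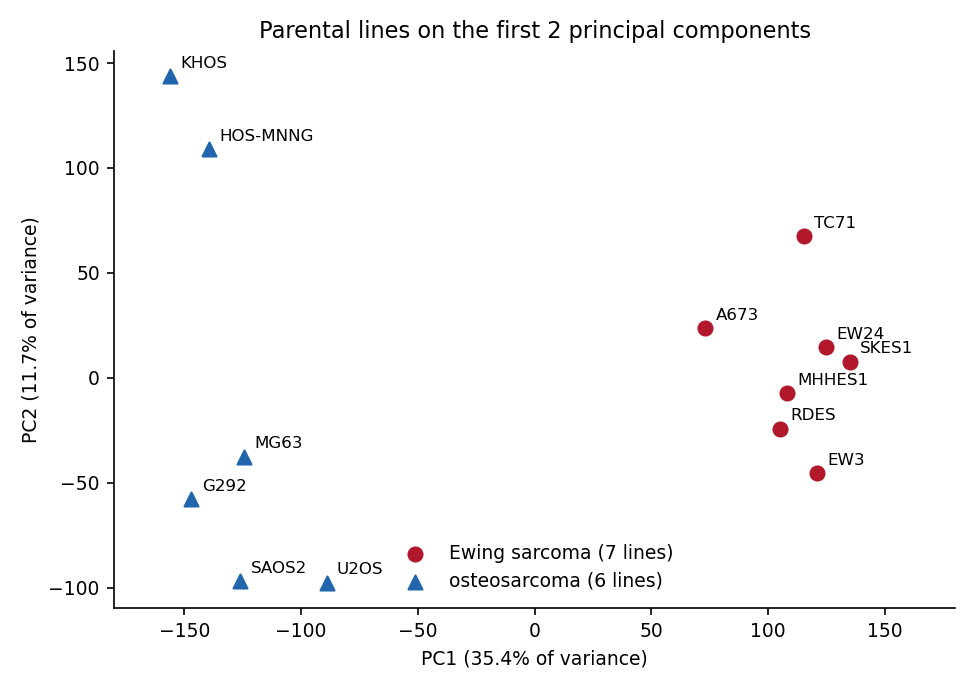
Each point is 1 line (sum of 3 libraries) placed by its first and second principal component over the genes tested, with Ewing sarcoma lines as red circles and osteosarcoma lines as blue triangles. All 7 Ewing sarcoma lines lie at 73.15 or above on the first component and all 6 osteosarcoma lines at -89.14 or below.

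The labels were checked against markers. Of 9 tested Ewing sarcoma markers, 4 were higher in the lines labelled so and none lower. NKX2-2, a homeobox factor of the disease, ran at 17.9 to 139 TPM (median 56) in Ewing sarcoma lines and 0 to 5.55 TPM (median 0.261) in osteosarcoma lines (adjusted p = 0.0203). LIPI, a lipase gene used as an Ewing sarcoma antigen, ran at 30.1 to 201 TPM (median 151) against 0.064 to 0.622 TPM (median 0.282), adjusted p = 2.38e-05. CD99, the surface protein used in diagnosis, overlapped between types, with 289.9 to 1701 TPM (median 594) against 116 to 944 TPM (median 414), adjusted p = 0.309. Osteoblast genes marked the other group unevenly: 6 of 17 tested were lower in Ewing sarcoma lines and 1 was higher. RUNX2, the master regulator of osteoblasts, was at 187 TPM in SAOS2, between 6.65 and 11.6 TPM in G292, HOS-MNNG, KHOS and U2OS, and at 0.39 TPM in MG63. Its range in Ewing sarcoma lines was 0.0223 to 6.77 TPM (median 1.06), so the groups overlapped although the gene was called (log2 fold change -5.11 ± 1.02, adjusted p = 0.00578). With an offset for effective transcript length RUNX2 was not called, and without SAOS2 its log2 fold change was -3.82. SP7 and IBSP, later osteoblast genes, were too low in most lines to test, with medians of 0.0124 and 0.0151 TPM in osteosarcoma lines.

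Some osteoblast genes were expressed in the Ewing sarcoma lines. PHOSPHO1, a phosphatase that starts mineral formation in matrix vesicles, was the osteoblast gene that was higher there, at 25.1 to 256 TPM (median 64) against 0.0523 to 1.69 TPM (median 0.902), log2 fold change 6.74 ± 0.83, adjusted p = 0.000313. DLX5, a homeobox gene of skeletal progenitors, ran at 2.11 to 58.1 TPM (median 29.2) against 0 to 74.9 TPM (median 1.66) and did not pass the test (adjusted p = 0.73). ALPL, the bone alkaline phosphatase, ran at 3.44 to 187 TPM (median 36.1) against 0.122 to 824 TPM (median 4.37), adjusted p = 0.671, with its highest value in an osteosarcoma line and its lowest in another. TNFRSF11B, the decoy receptor osteoprotegerin, was among the genes lower in Ewing sarcoma lines (0 to 0.787 TPM, median 0.0315, against 2.43 to 271 TPM, median 14.6, log2 fold change -8.14 ± 1.65, adjusted p = 0.00629). SPP1, the matrix phosphoprotein osteopontin, was lower as well (0 to 0.617 TPM, median 0.0203, against 0.0269 to 196 TPM, median 7.33, adjusted p = 0.0138).

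Markers of other cell types were low or mixed. Over 16 blood cell markers the summed level ran from 10.1 to 34.6 TPM in Ewing sarcoma lines and from 11 to 109.7 TPM in osteosarcoma lines, and CD2 and HBB had no count in either. Most of the osteosarcoma sum was CD68, a gene of macrophages and of lysosomes. CD79A, a B cell receptor subunit, was higher in Ewing sarcoma lines (2.73 to 24.5 TPM, median 8.16, against 0.119 to 0.597 TPM, median 0.179). The macrophage genes CD68 and CD14 were lower. Over 12 epithelial markers the sums ran from 6.33 to 623 TPM and from 13.6 to 1742 TPM, mostly the keratins KRT18 and KRT8, and 3 of 8 tested were lower in Ewing sarcoma lines (CLDN4, CLDN7 and KRT8), or 1 to 5 with a line left out. Over 10 endothelial markers the sums ran from 58.7 to 140.1 TPM and from 6.16 to 122 TPM, with 3 of 9 lower (PECAM1, ROBO4 and TIE1). EGFL7, which was not called, had the largest medians of this list, 68.4 and 15 TPM. Of 9 cartilage markers SOX6 was higher, of 5 melanocyte and Schwann cell markers PMEL was higher, and none of 4 muscle markers was called. Sums over 10 muscle markers ran from 7.87 to 109.7 TPM and from 4.75 to 243.6 TPM, the highest in U2OS. TNNT1 had the largest muscle medians, 55.6 and 8.87 TPM.

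The classes differed in how many of their genes were called and in which direction. Most classes of matrix, adhesion, cytoskeleton and lysosome genes had a larger share called lower in Ewing sarcoma lines than the 8.4% of all genes. Neural, neuropeptide and chromatin classes had a larger share called higher than the 5.94% of all genes. None of 78 ribosomal protein genes or 34 proteasome genes was called in either direction; their median log2 fold changes were -0.01 and -0.02. Of the 94 counts of genes called higher or lower in the 47 classes, 45 moved by over 1.5 times when some line was left out, among them 24 of the 44 counts of 2 or fewer. DESeq2 gave a larger count for 63 of the 94, and a fit of all 39 libraries with line as a random effect for 59.

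**Figure D2:**
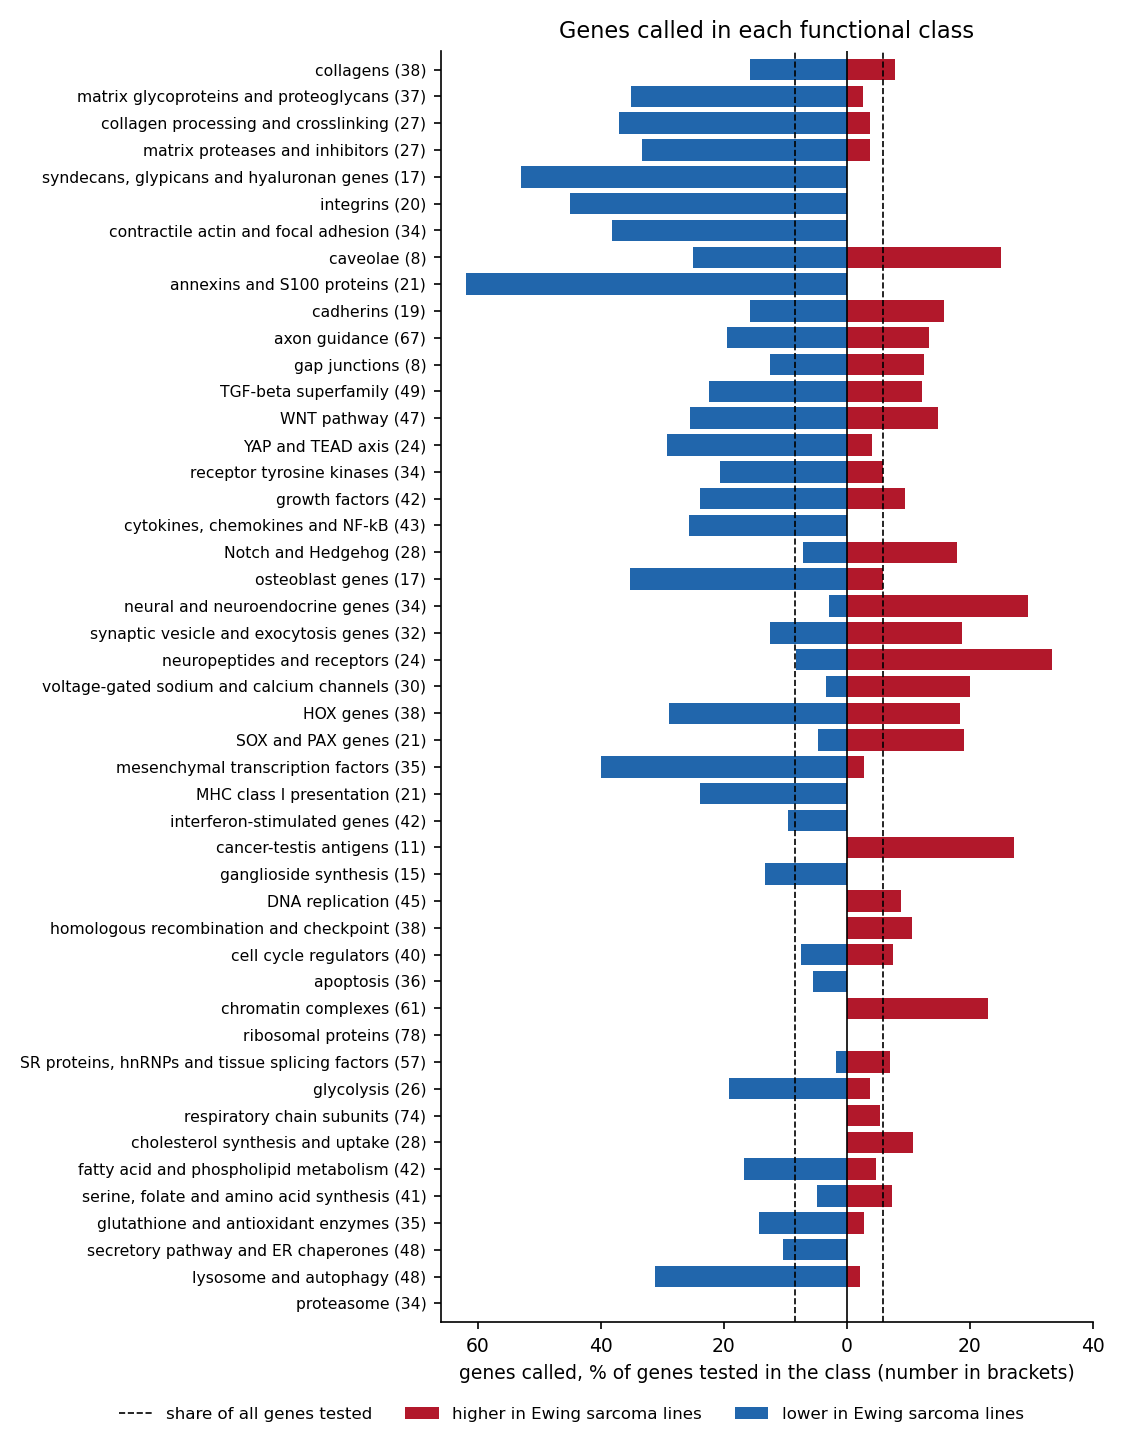
Bars give the percentage of the tested genes of each class that were called lower (blue, to the left) or higher (red, to the right) in Ewing sarcoma lines, with the number tested in brackets. Dashed lines mark the same percentages over all genes tested, 8.4% lower and 5.94% higher. The longest bar to the left is that of annexins and S100 proteins, 61.9%, and the longest to the right that of neuropeptides and receptors, 33.3%.

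In classes of the extracellular matrix more genes were called lower than higher in the Ewing sarcoma lines. Among 38 collagen genes tested, 6 were lower (15.8% against 8.4% of all genes) and 3 higher (7.9%, near the 5.94% of all genes). The median log2 fold change was -1.55. COL6A1, a chain of the microfibril collagen VI, ran at 1.96 to 64 TPM (median 8.54) in Ewing sarcoma lines and 69 to 1730.2 TPM (median 509) in osteosarcoma lines, a 26.7-fold difference (log2 fold change -4.74 ± 0.98, adjusted p = 0.00703). Its partner chain COL6A2 ran at 3.11 to 53.5 TPM (median 14.5) against 121 to 3156 TPM (median 506), adjusted p = 0.00278. Neither chain overlapped between the types, the lowest osteosarcoma line, U2OS for COL6A1, standing just above the highest Ewing sarcoma line, A673. COL1A1, the main collagen of bone, was lower in Ewing sarcoma lines but overlapped (2.93 to 179.7 TPM, median 10.8, against 72.4 to 3192 TPM, median 635, log2 fold change -4.29 ± 1.14, adjusted p = 0.0244). Without SAOS2, COL1A1 did not pass the test. The collagens that were higher were COL19A1, COL21A1 and COL25A1, and of these COL25A1, a transmembrane collagen of neurons, ran at 1.34 to 19.4 TPM (median 2.93) against 0.00469 to 0.433 TPM (median 0.0642), adjusted p = 0.00376. Left out in turn, the lines gave 6 to 10 collagens lower, the highest count without U2OS.

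Glycoproteins and proteoglycans of the matrix went the same way, with 13 of 37 lower (35.1%) and 1 higher, at a median of -2.29. THBS1, the adhesive glycoprotein thrombospondin that activates latent TGF-beta, ran at 0.0828 to 8.38 TPM (median 0.731) against 53.1 to 220.5 TPM (median 79.5), log2 fold change -5.78 ± 0.98, adjusted p = 0.00237. TGFBI, a TGF-beta-induced matrix protein that binds integrins, ran at 0.0231 to 21 TPM (median 0.641) against 25.3 to 552 TPM (median 324), adjusted p = 0.0156. For both genes every osteosarcoma line lay above every Ewing sarcoma line. The laminin chains LAMA1, LAMA5, LAMB2 and LAMC1, parts of basement membranes, were all lower. LAMC1, for example, ran at 11.4 to 51.1 TPM (median 39.2) against 56.2 to 172 TPM (median 98.2). FN1, the fibronectin gene, covered nearly the same range in both types (6.96 to 1340.4 TPM, median 264, against 37.6 to 1893 TPM, median 148) and was not called (adjusted p = 0.875). The gene that went the other way was ELN, the core of elastic fibres: it stood at 20.2 to 114 TPM (median 36.7) in Ewing sarcoma lines and 0.0272 to 0.139 TPM (median 0.077) in osteosarcoma lines (log2 fold change 9.03 ± 0.65, adjusted p = 1.03e-05). All 6 osteosarcoma lines held 74 estimated counts of ELN between them, against 48643 in the Ewing sarcoma lines.

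Collagen-modifying enzymes and matrix proteases followed. Of 27 genes of collagen processing, 10 were lower (37% against 8.4% of all genes), and 6 without MG63. Among them were the lysyl hydroxylase PLOD2 (12.2 to 38.4 TPM, median 15.8, against 40.4 to 217 TPM, median 91.9) and the crosslinking oxidase LOXL2. LOXL2 ran at 0.843 to 29.3 TPM (median 2.81) against 25.1 to 192 TPM (median 108). ADAMTS3, which trims procollagen, had the largest fall of the class among genes without overlap (0.00951 to 2.01 TPM, median 0.0631, against 2.7 to 13.9 TPM, median 7.45, log2 fold change -4.41 ± 1.17, adjusted p = 0.0244). COLGALT2, a collagen galactosyltransferase, was higher (7.95 to 32 TPM, median 18.8, against 0.39 to 3.39 TPM, median 2.22, adjusted p = 0.00359). SERPINH1, the collagen chaperone HSP47, was not called (75.9 to 749 TPM, median 441, against 5.47 to 491 TPM, median 226, adjusted p = 0.671). PLAU, the protease urokinase, ran at 0.177 to 18.8 TPM (median 0.881) against 24 to 1338 TPM (median 147), log2 fold change -6.46 ± 1.44, adjusted p = 0.0102. Its receptor PLAUR ran at 15.9 to 48.2 TPM (median 22.3) against 18.5 to 293 TPM (median 83.5), adjusted p = 0.0249. The gelatinase MMP2, its activator MMP14 and its inhibitor TIMP2 were also lower, MMP2 at 1.16 to 66.1 TPM (median 29) against 27 to 1514 TPM (median 314), adjusted p = 0.0175. ADAMTS4, an aggrecan-cleaving protease, was the one member of 27 that was higher (8.69 to 61.8 TPM, median 15.6, against 0.0945 to 3.32 TPM, median 0.191, log2 fold change 4.40 ± 0.84, adjusted p = 0.00465).

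Cell surface proteoglycans and the hyaluronan system had 9 of 17 genes lower (52.9%) and none higher. CD44, the hyaluronan receptor, was at 0.0107 to 7.32 TPM (median 0.0924) in Ewing sarcoma lines and 64.8 to 964 TPM (median 172) in osteosarcoma lines (log2 fold change -7.78 ± 1.62, adjusted p = 0.00741). A673 was the Ewing sarcoma line at 7.32 TPM, and the other Ewing sarcoma lines reached at most 1.3 TPM. The hyaluronan synthase HAS2 was lower as well (0 to 0.085 TPM, median 0.0228, against 0.404 to 41.9 TPM, median 3.15, adjusted p = 0.00151), as were its relative HAS3 and the syndecans SDC1, SDC3 and SDC4. SDC4, a focal adhesion syndecan, ran at 5.61 to 31.4 TPM (median 14.6) against 39.1 to 201 TPM (median 126), adjusted p = 0.00036.

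Integrins, the receptors for these matrix proteins, were lower for 9 of 20 tested (45%) and higher for none, and the count stayed at 9 or 10 whichever line was left out. ITGA3, a laminin receptor subunit, stood at 0.151 to 2.57 TPM (median 0.741) in Ewing sarcoma lines and 103 to 266 TPM (median 168) in osteosarcoma lines, 194-fold apart (log2 fold change -7.60 ± 0.72, adjusted p = 5.07e-05). ITGB1, the beta subunit shared by most matrix receptors, was expressed in all lines and lower in the Ewing sarcoma lines (108 to 369.6 TPM, median 266, against 421 to 1027 TPM, median 617, log2 fold change -1.66 ± 0.32, adjusted p = 0.00454). ITGA6 ran at 0.577 to 8.06 TPM (median 4.77) against 17.6 to 70 TPM (median 28.9), adjusted p = 0.00797. The vitronectin receptor subunit ITGAV ran at 9.64 to 27 TPM (median 14.8) against 25.7 to 81.8 TPM (median 51.4), adjusted p = 0.00116. The groups did not overlap for ITGA3, ITGB1 and ITGA6, and touched for ITGAV.

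Inside the cell, 13 of 34 genes of contractile actin and focal adhesions were lower (38.2%) and none was higher. They included the crosslinkers ACTN1 and ACTN4, the non-muscle myosin heavy chain MYH9, the tropomyosins TPM1 and TPM2, and the adhesion adaptors VCL (vinculin) and TLN1 (talin). MYL9, the regulatory light chain of contractile myosin, was between 0 and 0.0358 TPM in 6 Ewing sarcoma lines, 1.4 TPM in A673 and 6.22 to 159.7 TPM (median 37.5) in osteosarcoma lines (log2 fold change -8.07 ± 1.69, adjusted p = 0.00743). TGFB1I1, the focal adhesion adaptor Hic-5, ran at 0.0104 to 6.59 TPM (median 0.416) against 17.5 to 65 TPM (median 33.2), adjusted p = 0.0127. MYH9, at 79.8 to 203 TPM (median 86.5) against 198 to 861 TPM (median 346), differed less in proportion (-1.94 on the log2 scale, adjusted p = 0.00109). TAGLN, the smooth muscle gene transgelin, varied widely within each type (0.502 to 39.7 TPM, median 5.8, against 0.698 to 209.9 TPM, median 16.6) and was not called (adjusted p = 0.379). Its relative TAGLN2 was called, at 120.0 to 522 TPM (median 317) against 603 to 1706 TPM (median 933), log2 fold change -1.81 ± 0.35, adjusted p = 0.00515.

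**Figure D3:**
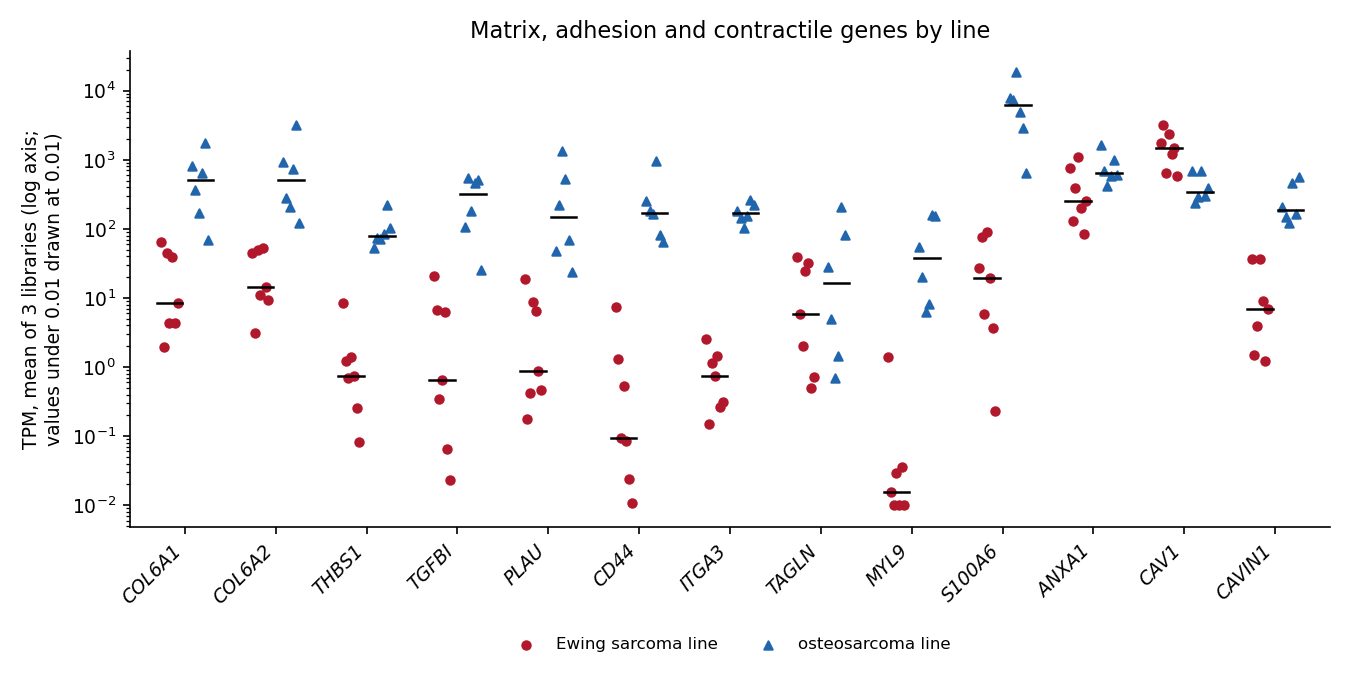
Each point is the TPM of 1 line (mean of 3 libraries) on a log axis, Ewing sarcoma lines as red circles and osteosarcoma lines as blue triangles, with a black bar at the median of each group. CD44, ITGA3, MYL9 and S100A6 show gaps between the groups, TAGLN and ANXA1 overlap, and CAV1 lies higher in Ewing sarcoma lines while CAVIN1 lies lower.

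SRF and TEAD factors are known to act at genes of this kind. The 250 bases before the start of each gene were searched for their motifs in RefSeq promoters (GRCh38.p14), on both strands, for 15837 tested genes that had one. A CArG box, the motif of SRF, was present in 6 of 31 contractile actin promoters (19.4%) and in 1.02% of all 15837. Of the contractile genes called lower, 11 had a promoter in the RefSeq table, and 1 of those had the box, MYLK, the myosin light chain kinase (0.729 to 17.4 TPM, median 3.76, against 8.69 to 174 TPM, median 17.9, adjusted p = 0.021). GGAATG, a TEAD motif, was present in 5 of 19 promoters of the YAP and TEAD class (26.3%) and in 10.2% of all. In that class the called genes that held it were CCN2, which encodes connective tissue growth factor, and TGFB2. The stretches that hold these motifs are shown so that the letters can be seen beside the values, with the motif in capitals.
MYLK (chr3:123620593-123620682, minus strand): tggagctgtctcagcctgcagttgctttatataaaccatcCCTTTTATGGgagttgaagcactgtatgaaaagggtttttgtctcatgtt
CCN2 (chr6:131951422-131951507, minus strand): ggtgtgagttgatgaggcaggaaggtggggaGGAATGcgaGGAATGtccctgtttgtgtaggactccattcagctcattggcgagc
TGFB2 (chr1:218345111-218345196, plus strand): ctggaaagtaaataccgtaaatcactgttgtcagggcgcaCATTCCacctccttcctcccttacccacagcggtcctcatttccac
The CCN2 window holds 3 copies of GGAATG, of which a pair 3 bases apart is shown. These are matches of letters, and binding was not measured.

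Genes of the YAP and TEAD class were lower for 7 of 24 (29.2% against 8.4% of all genes). For 1, TEAD2, they were higher (4.17%, under 5.94%). Leaving out 1 line gave 3 to 7 lower, with counts under 5 without EW3, EW24, RDES, SKES1 or TC71. CCN1, a matricellular YAP target, ran at 5.93 to 115 TPM (median 25.9) against 282 to 2062 TPM (median 534), log2 fold change -4.17 ± 0.68, adjusted p = 0.00185. CCN2 ran at 1.55 to 97.1 TPM (median 15.2) against 85.6 to 2625 TPM (median 129.7), adjusted p = 0.0317. AXL, a receptor tyrosine kinase and YAP target, ran at 0.131 to 7.64 TPM (median 2.61) against 100.4 to 264 TPM (median 162), 66.6-fold apart (log2 fold change -6.06 ± 0.80, adjusted p = 0.000521). The coactivator YAP1 itself overlapped (16.5 to 118 TPM, median 53.7, against 38.9 to 115 TPM, median 52.3, adjusted p = 0.588). WWTR1, which encodes its relative TAZ, was lower in Ewing sarcoma lines (6.2 to 34.7 TPM, median 13.9, against 9.74 to 155 TPM, median 81.3, adjusted p = 0.0275). TEAD2 ran at 53.9 to 192 TPM (median 119) against 4.65 to 64 TPM (median 32.5), adjusted p = 0.0151.

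The caveola genes split. Caveolae are membrane pits built from caveolins and held in shape by cavins. CAV1, the main caveolin, was higher in Ewing sarcoma lines, at 588 to 3158 TPM (median 1496) against 240.2 to 696 TPM (median 345), log2 fold change 1.73 ± 0.40, adjusted p = 0.013, with EW24 and TC71 below the highest osteosarcoma line, MG63. CAV2 was higher too (68.3 to 204 TPM, median 107, against 22.1 to 71.4 TPM, median 36.2, adjusted p = 0.00837). CAVIN1, the coat protein without which caveolae do not form, was lower (1.24 to 36.3 TPM, median 6.82, against 121 to 560.0 TPM, median 186, 20.9-fold, log2 fold change -4.39 ± 0.85, adjusted p = 0.00494), with no overlap. EHD2, an ATPase at the caveola neck, was lower as well (0.106 to 32.5 TPM, median 1.31, against 22.8 to 229 TPM, median 63.8, adjusted p = 0.0471). The number of caveola genes lower fell from 2 to 1 in 11 of 13 leave-out fits, and also with HOS-MNNG and KHOS summed.

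Annexins and S100 proteins, calcium-binding proteins at membranes, had the largest share of genes called lower, 13 of 21 (61.9%), with none higher. S100A6 reached 654 to 18423 TPM (median 6149) in osteosarcoma lines and 0.228 to 88.8 TPM (median 19.5) in Ewing sarcoma lines (log2 fold change -8.19 ± 1.30, adjusted p = 0.00163). KHOS was highest and U2OS lowest of the osteosarcoma lines, and TC71 was lowest of all. ANXA2 and its partner S100A10, which form a complex that binds plasminogen at the cell surface, were both lower: ANXA2 at 219.5 to 1347 TPM (median 629) against 1535 to 4719.5 TPM (median 2537), adjusted p = 0.0143. S100A10 ran at 19.3 to 212 TPM (median 58.7) against 832 to 1320.3 TPM (median 1109), log2 fold change -3.99 ± 0.53, adjusted p = 0.000526. S100A4, linked to cell motility, ran at 11.7 to 84.7 TPM (median 47.8) against 99.3 to 3908 TPM (median 332), adjusted p = 0.00582. ANXA1 overlapped and was not called (83.5 to 1097 TPM, median 253, against 419.6 to 1649 TPM, median 647, adjusted p = 0.233).

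Of 19 cadherins 3 were higher (15.8% against 5.94% of all genes) and 3 lower (15.8% against 8.4%). Leaving out 1 line gave 2 to 5 higher, the most without SAOS2, and 1 to 4 lower. The number lower fell by over 1.5 times without EW3, EW24, RDES, SKES1 or TC71. CDH8, a cadherin of neural tissue, was higher (5.05 to 29.2 TPM, median 14.1, against 0.00388 to 0.62 TPM, median 0.1, log2 fold change 5.81 ± 1.01, adjusted p = 0.00277). CDH11, the osteoblast cadherin, did not pass (18.6 to 113 TPM, median 65.2, against 5.56 to 86.1 TPM, median 37.1, adjusted p = 0.509). Axon guidance genes, which steer growing nerve fibres and blood vessels, had 9 higher (13.4%) and 13 lower (19.4%) of 67. Ephrin receptors made up 5 of those higher (EPHA1, EPHA3, EPHA4, EPHB3 and EPHB4), while another, EPHA6, was among those lower. EPHA3 ran at 5.88 to 61.9 TPM (median 16.7) against 0 to 1.45 TPM (median 0.108), adjusted p = 0.0167. SEMA5B, a semaphorin, ran at 2.58 to 44.5 TPM (median 3.17) against 0 to 0.0813 TPM (median 0.011), adjusted p = 0.000799. NRP1, a co-receptor of semaphorins and VEGF, was lower (1.65 to 30.6 TPM, median 9.46, against 11.2 to 191 TPM, median 79.7, log2 fold change -3.38 ± 0.73, adjusted p = 0.00902). Also lower were 4 plexin genes, SEMA3E (adjusted p = 0.00226) and the endothelial guidance receptor ROBO4. ROBO4 ran at 0 to 0.0633 TPM (median 0.0168) against 0.0633 to 39.6 TPM (median 2.62), adjusted p = 0.00264. GJA1, the gap junction gene connexin 43, did not differ beyond its spread (33.2 to 157 TPM, median 124, against 20.9 to 276 TPM, median 77.6, adjusted p = 0.964).

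Genes of signalling pathways changed in both directions. In the TGF-beta superfamily 6 of 49 were higher (12.2% against 5.94% of all genes) and 11 lower (22.4% against 8.4%). TGFBR2, the receptor that binds TGF-beta, ran at 0.491 to 16.5 TPM (median 2.11) in Ewing sarcoma lines and 33.7 to 143 TPM (median 64.1) in osteosarcoma lines, 20.5-fold apart without overlap (log2 fold change -4.36 ± 0.89, adjusted p = 0.00641). The ligand TGFB2, the latent binding proteins LTBP1 and LTBP2, the transducer SMAD3 and the feedback inhibitor SMAD7 were lower too. SMAD3 ran at 7.82 to 29.3 TPM (median 19.9) against 21.5 to 63.3 TPM (median 42.4). Among BMP ligands, GDF6 was higher (46.6 to 173 TPM, median 100.4, against 0.126 to 21.6 TPM, median 0.541, log2 fold change 4.42 ± 1.15, adjusted p = 0.0216). MG63 alone among osteosarcoma lines stood above 1.27 TPM. BMP4 and the BMP antagonist GREM1 were lower. The BMP target ID2 was higher (120.3 to 527 TPM, median 273, against 9.38 to 97 TPM, median 33, log2 fold change 2.73 ± 0.52, adjusted p = 0.00438), and its relative ID1 was lower.

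In the WNT pathway 7 of 47 were higher (14.9% against 5.94% of all genes) and 12 lower (25.5% against 8.4%). Left out in turn, the lines gave 4 to 6 and 7 to 10. The first moved by over 1.5 times without RDES or HOS-MNNG, the second without A673, MHHES1, RDES or SAOS2. Secreted DKK antagonists went both ways. DKK1 ran at 0 to 2.48 TPM (median 1.06) against 0.191 to 302 TPM (median 77.8), log2 fold change -6.96 ± 1.34, adjusted p = 0.0048, lower in Ewing sarcoma lines. DKK3 was lower as well (0.0397 to 2.9 TPM, median 1.04, against 15.5 to 741 TPM, median 123, adjusted p = 0.00173). DKK2 was higher (1.09 to 77.1 TPM, median 16.2, against 0.105 to 0.673 TPM, median 0.322, log2 fold change 6.28 ± 1.06, adjusted p = 0.00225). APCDD1, a membrane-bound WNT inhibitor, was higher too (76.8 to 262 TPM, median 128, against 0 to 11.2 TPM, median 1.3, adjusted p = 0.0249). The ligand WNT5B was lower (0.046 to 1.87 TPM, median 0.732, against 5.11 to 173 TPM, median 24.7, adjusted p = 0.0014). CTNNB1, beta-catenin, was lower too (94.1 to 184 TPM, median 164, against 158 to 587 TPM, median 213, log2 fold change -1.21 ± 0.30, adjusted p = 0.0167). Receptors that were higher were FZD1, FZD3, FZD4, FZD9 and LGR5, and FZD6 and RYK were lower.

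Receptor tyrosine kinases had 7 of 34 lower (20.6% against 8.4% of all genes) and 2 higher (5.88% against 5.94%), or 4 higher without SAOS2. EGFR ran at 0.00892 to 2.28 TPM (median 0.216) against 4.17 to 38.9 TPM (median 25.5), log2 fold change -5.41 ± 1.11, adjusted p = 0.00657. MET, the hepatocyte growth factor receptor, ran at 0.886 to 4.02 TPM (median 2.41) against 26.2 to 71.4 TPM (median 40.5), adjusted p = 6.24e-05. PDGFRA ran at 0.0337 to 2.36 TPM (median 0.537) against 3.94 to 187 TPM (median 17.9), adjusted p = 0.00592. None of the 3 overlapped between types. IGF1R, the receptor of insulin-like growth factor, was lower by a small margin with overlap (5.27 to 17.1 TPM, median 10, against 6.74 to 53.5 TPM, median 19.2, adjusted p = 0.0472). Its ligand IGF1 was higher (1.63 to 17.8 TPM, median 7.14, against 0 to 0.172 TPM, median 0.0159, log2 fold change 6.45 ± 1.02, adjusted p = 0.00161). RET and ERBB4, receptors of neural tissues, were higher. RET ran from 0.0135 to 61 TPM among Ewing sarcoma lines. ROS1 was called lower, but SAOS2 stood at 75 TPM and the other osteosarcoma lines at 0.929 TPM or less.

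Growth factors and cytokines were lower more often than higher. Of 42 growth factor genes 10 were lower (23.8% against 8.4% of all genes) and 4 higher (9.52% against 5.94%). Leaving out 1 line gave 5 to 12 and 1 to 4, the lowest of both without SKES1. VEGFC, which drives lymphatic vessel growth, was at 0.0096 to 0.0824 TPM (median 0.0253) in Ewing sarcoma lines and 8.67 to 91 TPM (median 19.2) in osteosarcoma lines (log2 fold change -10.03 ± 0.83, adjusted p = 2.38e-05). FGF5 ran at 0.0644 to 0.178 TPM (median 0.0975) against 0.345 to 121 TPM (median 2.1), adjusted p = 0.00296. Of 43 cytokine, chemokine and NF-kB genes 11 were lower (25.6%) and none higher, 11 to 14 in the leave-out fits. LIF, a cytokine of the IL-6 family, had a narrow range in osteosarcoma lines and almost no transcript in Ewing sarcoma lines (0.00528 to 0.576 TPM, median 0.0976, against 36.1 to 51.2 TPM, median 41.2, log2 fold change -7.58 ± 0.87, adjusted p = 0.000204). Others of that family were lower too. IL6 ran at 0.0202 to 0.127 TPM (median 0.0405) against 0.388 to 3.04 TPM (median 1.26), adjusted p = 0.00036. IL11 ran at 0.305 to 0.762 TPM (median 0.468) against 0.287 to 290.2 TPM (median 39.5), adjusted p = 0.00145. The shared receptor chain IL6ST ran at 4.77 to 22.8 TPM (median 13.1) against 31.9 to 109.7 TPM (median 36.7), adjusted p = 0.00547.

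Notch and Hedgehog genes were examined together. PTCH1, a Hedgehog receptor, SMO, its signal transducer, and GAS1, a co-receptor, were higher. SMO ran at 26.8 to 88.9 TPM (median 48.1) against 5.08 to 32.8 TPM (median 9.42), adjusted p = 0.00808. GAS1 ran at 23 to 184 TPM (median 64.1) against 0.419 to 20.2 TPM (median 4.1), log2 fold change 3.28 ± 0.90, adjusted p = 0.0282. Of the Notch receptors NOTCH1 was higher (7.71 to 33.7 TPM, median 14.6, against 3.46 to 8.79 TPM, median 4.71, adjusted p = 0.00999). NOTCH2 was lower (18.1 to 39.6 TPM, median 24.9, against 23.5 to 79.4 TPM, median 45.8, adjusted p = 0.0344). Over both pathways 5 of 28 were higher (17.9% against 5.94% of all genes) and 2 lower (7.14%, under 8.4%), at a median of -0.18. With a line left out 2 to 5 were higher, and 7 lines lowered the count to 3 or fewer. NOTCH2 passed in 7 of 13 leave-out fits and GAS1 in 10. NOTCH2 was also not called when all 39 libraries were fitted with line as a random effect.

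Neural genes were the class most often higher in Ewing sarcoma lines after neuropeptides. Of 34 neural and neuroendocrine genes tested 10 were higher (29.4%) and 1 was lower, at a median of 1.94. MAPT, the microtubule protein tau, ran at 19.8 to 144 TPM (median 84.7) against 0.0492 to 0.833 TPM (median 0.266), 203-fold apart (log2 fold change 7.67 ± 0.83, adjusted p = 0.000149). PCSK2, a prohormone convertase, ran at 12.9 to 92.7 TPM (median 53) against 0 to 0.468 TPM (median 0.00679), log2 fold change 9.43 ± 1.41, adjusted p = 0.00111. U2OS was the highest osteosarcoma line, and without it the log2 fold change was 12.80. Neuronal genes at lower levels included the RNA-binding proteins ELAVL3 and ELAVL4, the migration gene DCX and the vesicle genes SYP and CHGA. DCX ran at 0.00757 to 14.6 TPM (median 3.99) against 0.00587 to 0.246 TPM (median 0.0158). SYP ran at 1.9 to 20.8 TPM (median 6.3) against 0.319 to 2.24 TPM (median 1.01), and CHGA at 0.0963 to 6.68 TPM (median 1.92) against 0.0109 to 0.193 TPM (median 0.0932). Line levels of DCX, SYP and CHGA overlapped between the types. UCHL1, a neuronal deubiquitinase, was abundant in nearly all lines of both types (907 to 1473 TPM, median 1023, against 1.43 to 1624 TPM, median 896, adjusted p = 0.892), U2OS with 1.43 TPM excepted.

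Neuropeptide and receptor genes were higher for 8 of 24 (33.3%) and lower for 2 (8.33%, about the 8.4% of all genes). The number lower was 1 to 4 with a line left out and moved by over 1.5 times without RDES, HOS-MNNG or U2OS. NPY1R, a receptor of neuropeptide Y, ran at 11.4 to 262 TPM (median 47.8) against 0.0353 to 1.12 TPM (median 0.148), log2 fold change 7.93 ± 1.21, adjusted p = 0.00129. Its relative NPY5R ran at 1.97 to 25.5 TPM (median 4.58) against 0 to 0.666 TPM (median 0), adjusted p = 0.021. The peptide genes CCK (1.03 to 577 TPM, median 188, against 0 to 0.524 TPM, median 0, adjusted p = 0.00159), NTS, PENK, PDYN and CALCB were higher with wide ranges among Ewing sarcoma lines, PENK from 0.073 to 594 TPM. Of 32 synaptic vesicle genes 6 were higher (18.75% against 5.94% of all genes) and 4 lower (12.5% against 8.4%). With a line left out, 5 or 6 were higher, while the number lower fell to as few as 1, moved by over 1.5 times without A673, EW3, EW24, MHHES1, RDES, TC71 or G292. SV2B, a vesicle glycoprotein, was higher (0.2 to 20.1 TPM, median 1.61, against 0.0166 to 0.0548 TPM, median 0.0271, log2 fold change 7.38 ± 1.03, adjusted p = 0.000769). CADPS2, a priming factor for dense-core vesicles, was higher as well (6.09 to 55.6 TPM, median 24.9, against 0.282 to 3.79 TPM, median 1.65, adjusted p = 0.00416). Of 30 sodium and calcium channel genes 6 were higher (20% against 5.94% of all genes) and 1 lower (3.33% against 8.4%). DESeq2 gave 8 higher and 9 lower, and leaving out 1 line gave 4 to 8 and 1 to 3. The number lower moved by over 1.5 times without EW3, EW24, RDES, G292, KHOS or SAOS2. Those higher included the T-type channels CACNA1G and CACNA1I and the beta subunit CACNB2 (1.9 to 17.6 TPM, median 5.38, against 0.0754 to 1.47 TPM, median 0.566, log2 fold change 3.49 ± 0.66, adjusted p = 0.0042). CACNA1C, the L-type channel, was not called (0.00136 to 1.12 TPM, median 0.044, against 0.00472 to 7.6 TPM, median 1.79, adjusted p = 0.184), but DESeq2 called it lower.

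HOX genes, which set position along the body axis and sit in 4 clusters, split by cluster. Of 38 tested, 7 were higher (18.4% against 5.94% of all genes) and 11 lower (28.9% against 8.4%). In the HOXA cluster 9 of 11 were lower, at a median of -4.40, and the summed level of the cluster ran from 0.308 to 18.7 TPM in Ewing sarcoma lines and from 65.9 to 156 TPM in osteosarcoma lines. A673 was the line at 0.308 TPM. In the HOXD cluster 5 of 9 were higher and none lower, at a median of 2.38, with sums of 151 to 447 TPM against 11.7 to 70.2 TPM. Neither pair of sums overlapped. HOXB genes had 2 of 9 lower (sums 45.7 to 184 against 71.4 to 235 TPM) and HOXC genes 2 of 9 higher (76.6 to 345 against 22.3 to 108 TPM), and both sums overlapped.

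The HOX genes that were higher carried numbers from 8 to 13, which are expressed toward the tail of the body. They were HOXC11, HOXC12, HOXD8, HOXD9, HOXD10, HOXD12 and HOXD13. HOXD13, which patterns digits, ran at 2.17 to 167 TPM (median 86.6) against 0.211 to 13.1 TPM (median 2.32), log2 fold change 4.44 ± 0.99, adjusted p = 0.0101. EW3 was the Ewing sarcoma line at 2.17 TPM, and the other Ewing sarcoma lines lay at 36.2 TPM or above. HOXD9 ran at 13.1 to 56.4 TPM (median 33.9) against 2.19 to 10.4 TPM (median 4.91), without overlap (log2 fold change 2.60 ± 0.41, adjusted p = 0.00159). HOXC12 was at 75.8 TPM in EW3, the line low in HOXD13, and at 1.5 TPM in A673. HOXA3, among the largest falls, ran at 0 to 0.269 TPM (median 0.139) against 1.54 to 6.29 TPM (median 3.62), log2 fold change -5.04 ± 0.78, adjusted p = 0.0014. HOXA9 ran at 0 to 6.93 TPM (median 0.414) against 11.2 to 45.3 TPM (median 37), adjusted p = 0.0323. HOXD11 did not pass the test (7.49 to 101 TPM, median 52, against 0.0271 to 8.82 TPM, median 1.74, adjusted p = 0.0578). Nor did HOXB13 (8.79 to 72.8 TPM, median 33.4, against 0.00503 to 20.7 TPM, median 2.9, adjusted p = 0.0947). Whichever line was left out, 7 to 9 HOX genes were higher and 8 to 11 lower.

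**Figure D4:**
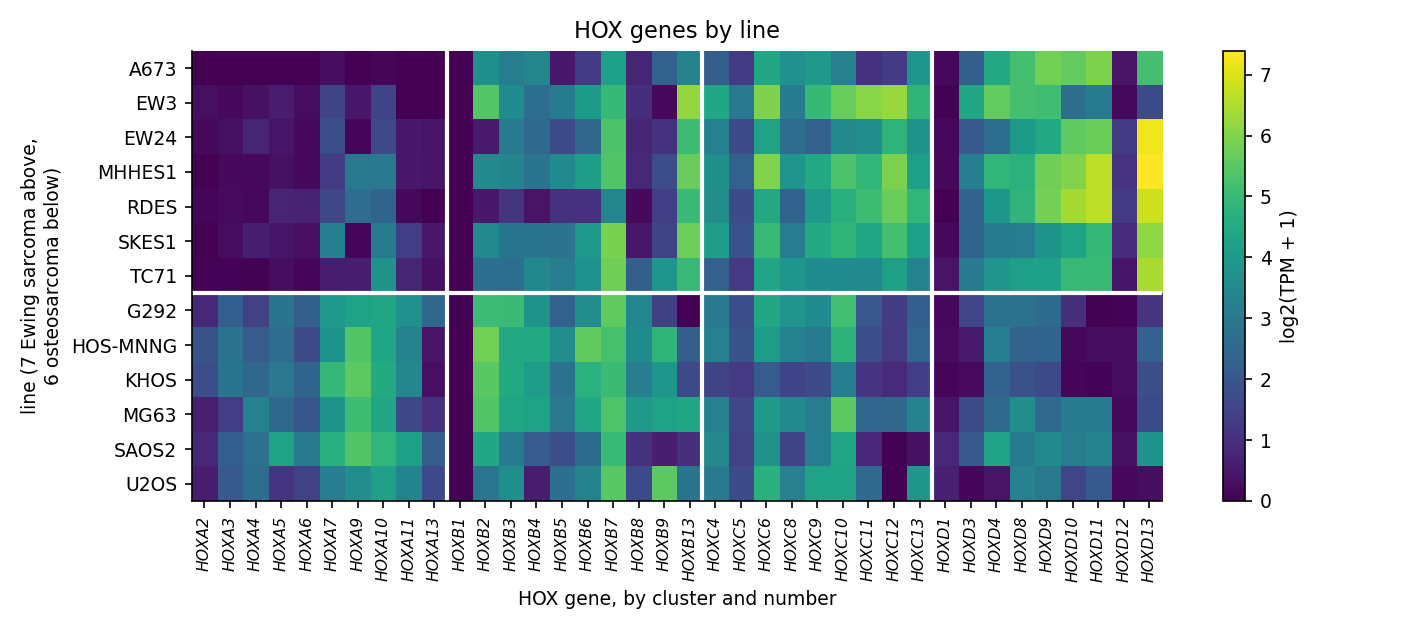
Colour gives log2(TPM + 1) of HOX genes (columns, by cluster and number) in each line (rows), with white lines between clusters and between the 7 Ewing sarcoma lines above and the 6 osteosarcoma lines below. Most HOXA columns are darker in the Ewing sarcoma lines (cluster sums of 0.308 to 18.7 TPM against 65.9 to 156 TPM), with HOXA10 reaching 13 TPM in TC71. HOXD cluster sums are higher in them (151 to 447 TPM against 11.7 to 70.2 TPM), but HOXD1 is low in both types and HOXD4 overlaps.

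Other transcription factors of lineage also divided. Mesenchymal transcription factors were lower for 14 of 35 (40%) and higher for 1. The number higher was 0 to 2 with a line left out, moved by over 1.5 times without EW3, EW24, MHHES1, RDES, SKES1, G292 or U2OS. TBX15, a T-box factor of skeletal development, ran at 0.112 to 1.29 TPM (median 0.431) against 5.59 to 33.5 TPM (median 22.4), log2 fold change -5.76 ± 0.67, adjusted p = 0.000227. FOSL1, an AP-1 subunit, ran at 0.602 to 22.6 TPM (median 1.51) against 42.2 to 549 TPM (median 253), log2 fold change -5.73 ± 1.11, adjusted p = 0.00503. The repressor of epithelial genes SNAI2 was lower (1.35 to 8.7 TPM, median 2.25, against 9.93 to 82.1 TPM, median 13). ZEB1, another, was lower too (0.606 to 11.7 TPM, median 1.1, against 11.4 to 52.8 TPM, median 19.1), as were TWIST2 and the Kruppel-like factors KLF2, KLF4 and KLF6. TWIST1 was not called and its Ewing sarcoma range reached higher (8.32 to 256 TPM, median 45.5, against 0.147 to 65.3 TPM, median 26.4, adjusted p = 0.46). Among SOX and PAX genes, 4 of 21 were higher (19%) and 1 lower (4.76%, under the 8.4% of all genes). The number lower was 0 to 2 with a line left out, moved by over 1.5 times without EW24, MHHES1, SKES1, G292, KHOS or SAOS2, and 0 with HOS-MNNG and KHOS summed. SOX6, a factor of cartilage and neurons, ran at 8.02 to 29.3 TPM (median 18.1) against 0.0306 to 1.32 TPM (median 0.125), log2 fold change 5.24 ± 0.89, adjusted p = 0.00241. The stem cell factor SOX2 ran at 28.6 to 92 TPM (median 42.1) against 0.0263 to 4.1 TPM (median 1.39), adjusted p = 0.00907. SOX9, the cartilage regulator, did not pass (0 to 41.8 TPM, median 1.51, against 13 to 73.7 TPM, median 39.8, adjusted p = 0.317).

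Genes that present antigen on MHC class I had negative log2 fold changes in 21 of 21 tested, with a median of -1.10, where 46.6% of all genes tested had positive ones. Called lower were 5 (23.8% against 8.4% of all genes). They were HLA-C, NLRC5, PSMB9, PSMB10 and TAP2. TAP2, a chain of the transporter that feeds peptides to class I molecules, ran at 0.357 to 26.1 TPM (median 9.96) against 36 to 119 TPM (median 41.1) without overlap (log2 fold change -2.20 ± 0.69, adjusted p = 0.0484). NLRC5, the transactivator of class I genes, ran at 0.0219 to 3.04 TPM (median 0.24) against 0.527 to 36.7 TPM (median 8.4), adjusted p = 0.0433. The immunoproteasome subunit PSMB9 ran at 0.0212 to 4.22 TPM (median 0.299) against 2.92 to 116 TPM (median 13.4), adjusted p = 0.0291. HLA-C ran at 11.1 to 102 TPM (median 39.3) against 42.9 to 676 TPM (median 238), adjusted p = 0.0307. HLA genes share much of their sequence, so the split of reads between them is uncertain. B2M, the light chain of class I molecules, was abundant in both (600.4 to 2264 TPM, median 1601, against 632 to 2654 TPM, median 1675, adjusted p = 0.654). These 5 calls were close to the threshold: leaving out 1 line gave 0 to 5, and TAP2 passed in 2 of 13 such fits. With HOS-MNNG and KHOS summed, 3 were called. DESeq2 called 12 lower, and the fit of all 39 libraries with line as a random effect 13.

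Of 42 interferon-stimulated genes 4 were lower (9.52%), close to the background, and none was higher; without MHHES1 the count was 9. IRF1, an interferon-induced factor, ran at 2.19 to 5.51 TPM (median 2.96) against 6.46 to 15.8 TPM (median 8.37), log2 fold change -1.70 ± 0.32, adjusted p = 0.00442. The membrane protein IFITM2 ran at 1.88 to 32.4 TPM (median 14.5) against 32.7 to 193 TPM (median 66.2), adjusted p = 0.0256. IFITM3 was not called (38.9 to 804 TPM, median 251, against 193 to 970.3 TPM, median 336, adjusted p = 0.452). The 804 TPM belonged to MHHES1, whose SD over its 3 libraries was 710 TPM. Of 11 tested cancer-testis antigens, genes normally silent outside the germ line, 3 were higher: CTCFL, SSX1 and SYCP1. That count was 1 to 3 without an Ewing sarcoma line and 8 or 9 without an osteosarcoma line, when the filter on low counts asks for fewer lines. The list held 66 genes, and with no filter on low counts 9 were called higher and 9 lower. The direction of the calls thus depended on which genes passed the filter. CTCFL, a germ-line relative of CTCF, was at 83.5 TPM in TC71 and at 2.43 TPM or less in the other Ewing sarcoma lines, against 0.081 to 0.347 TPM (median 0.171), log2 fold change 6.90 ± 1.68, adjusted p = 0.0158. Without TC71 its log2 fold change was 2.96. PRAME covered the same range in both types (4.92 to 334 TPM, median 171, against 11.2 to 403 TPM, median 157, adjusted p = 0.863). B4GALNT1, which makes the gangliosides GM2 and GD2, was not called (6.09 to 43.1 TPM, median 18.1, against 6.37 to 294 TPM, median 17.6, adjusted p = 0.313).

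Chromatin genes were higher for 14 of 61 (23%) and lower for none, and the count was 11 to 18 in the leave-out fits. EZH2, the methyltransferase of Polycomb complex PRC2, ran at 96.4 to 335 TPM (median 169) against 27.9 to 58.9 TPM (median 41.6), 3.58-fold apart without overlap (log2 fold change 1.84 ± 0.34, adjusted p = 0.00358). The Polycomb proteins CBX2 and CBX8 and the PRC2 subunit RBBP4 were higher as well, CBX2 at 52.2 to 121 TPM (median 82.4) against 1.89 to 48 TPM (median 11.9), adjusted p = 0.0322. Of BAF complex subunits, which remodel nucleosomes, ARID1A, ARID2, SMARCA4, SMARCC1, SMARCD1, BCL7A and BCL11B were higher. BCL7A ran at 19.2 to 57.7 TPM (median 35.5) against 3.11 to 10.4 TPM (median 4.94), log2 fold change 2.58 ± 0.32, adjusted p = 0.000317. BCL11B, a subunit of neurons and T cells, ran at 8.6 to 81.7 TPM (median 23.4) against 0 to 1.89 TPM (median 0.0284), log2 fold change 6.38 ± 1.44, adjusted p = 0.0112. The differences of the core subunits were small, SMARCC1 at 85.1 to 178 TPM (median 131) against 46.3 to 101 TPM (median 61.5) (0.86 on the log2 scale, adjusted p = 0.0124). The DNA methyltransferase DNMT3A ran at 25.4 to 73.2 TPM (median 44.7) against 3.16 to 13 TPM (median 9.78), adjusted p = 0.000274. The oxidase TET1 ran at 1.67 to 7.05 TPM (median 4.25) against 0.419 to 2.14 TPM (median 0.799), adjusted p = 0.0141.

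Of 45 replication genes 36 had positive log2 fold changes, as had 46.6% of all genes tested, and the median was 0.35. Called higher were 4 (8.89% against 5.94% of all genes), MCM6, POLE, RFC2 and RPA2. That count was 2 to 11 when a line was left out, the extremes without KHOS and EW3. RFC2, a subunit of the clamp loader, ran at 101 to 188 TPM (median 144) against 46.3 to 95 TPM (median 72.3), log2 fold change 0.92 ± 0.22, adjusted p = 0.0143. The helicase subunit MCM2 did not pass (142 to 272 TPM, median 206, against 99.5 to 169.8 TPM, median 119, adjusted p = 0.0993). PARP1, a sensor of DNA breaks, ran at 215 to 397 TPM (median 364) against 124 to 249 TPM (median 164), log2 fold change 0.83 ± 0.19, adjusted p = 0.0102. The helicase BLM ran at 22.9 to 40.7 TPM (median 27.8) against 10.8 to 15.8 TPM (median 12.8), adjusted p = 0.00643. CHEK1 and RIF1 were the other repair genes called higher, 4 of 38 in all (10.5% against 5.94% of all genes). Of 40 cell cycle regulators 3 were higher (7.5% against 5.94% of all genes) and 3 lower (7.5% against 8.4%), so both shares were close to the background. Leaving out 1 line gave 2 to 6 higher, moved by over 1.5 times without U2OS, and 2 or 3 lower. CDKN1A, the p53-induced inhibitor p21, was lower in Ewing sarcoma lines (1.23 to 12.4 TPM, median 9.33, against 22.2 to 185 TPM, median 36.7, log2 fold change -3.11 ± 0.66, adjusted p = 0.00812). CDK6, the kinase of the G1 phase, was also lower (0.049 to 3.67 TPM, median 0.693, against 13 to 35.8 TPM, median 17.4, log2 fold change -4.39 ± 0.81, adjusted p = 0.00376). E2F2, a transcription factor of S phase entry, was higher (22.3 to 55.6 TPM, median 36.6, against 5.16 to 17.2 TPM, median 6.27, adjusted p = 0.000647). Its relative E2F5 was higher too (43.5 to 127 TPM, median 73.1, against 4.19 to 20.6 TPM, median 9.86, adjusted p = 0.00163).

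Of apoptosis genes the survival factors MCL1 and BCL2L1 were lower (2 of 36, 5.56% against 8.4% of all genes), so the share was under the background. The count was 1 to 3 with a line left out, and 9 lines moved it by over 1.5 times. No apoptosis gene was called higher, but DESeq2 called 5 higher and 5 lower, and the fit of all 39 libraries 7 higher and 4 lower. BCL2L1 ran at 22 to 56.3 TPM (median 32.8) against 50.5 to 310.5 TPM (median 74.9), adjusted p = 0.0126. BCL2 itself just missed the threshold in the other direction (3.89 to 10.4 TPM, median 6.42, against 1.83 to 6 TPM, median 3.87, adjusted p = 0.0558). Splicing factors had 4 of 57 higher (7.02% against 5.94% of all genes) and 1 lower (1.75% against 8.4%). With a line left out, 2 to 6 were higher, the number moving by over 1.5 times without SKES1, and 1 to 3 were lower, moving so without EW3, G292, KHOS, MG63, SAOS2 or U2OS. Among those higher were SRRM4, a neuronal splicing activator, and MBNL3. MBNL3 ran at 6 to 47.3 TPM (median 9.24) against 0.592 to 3.02 TPM (median 2.19), log2 fold change 2.66 ± 0.52, adjusted p = 0.00538. SRSF1, a general splicing factor, did not pass the test (202 to 237 TPM, median 229, against 145 to 208 TPM, median 165, adjusted p = 0.376). The ribosomal gene RPS6 did not pass it either (481 to 2777 TPM, median 1709, against 711 to 2964 TPM, median 1511, adjusted p = 0.898).

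**Figure D5:**
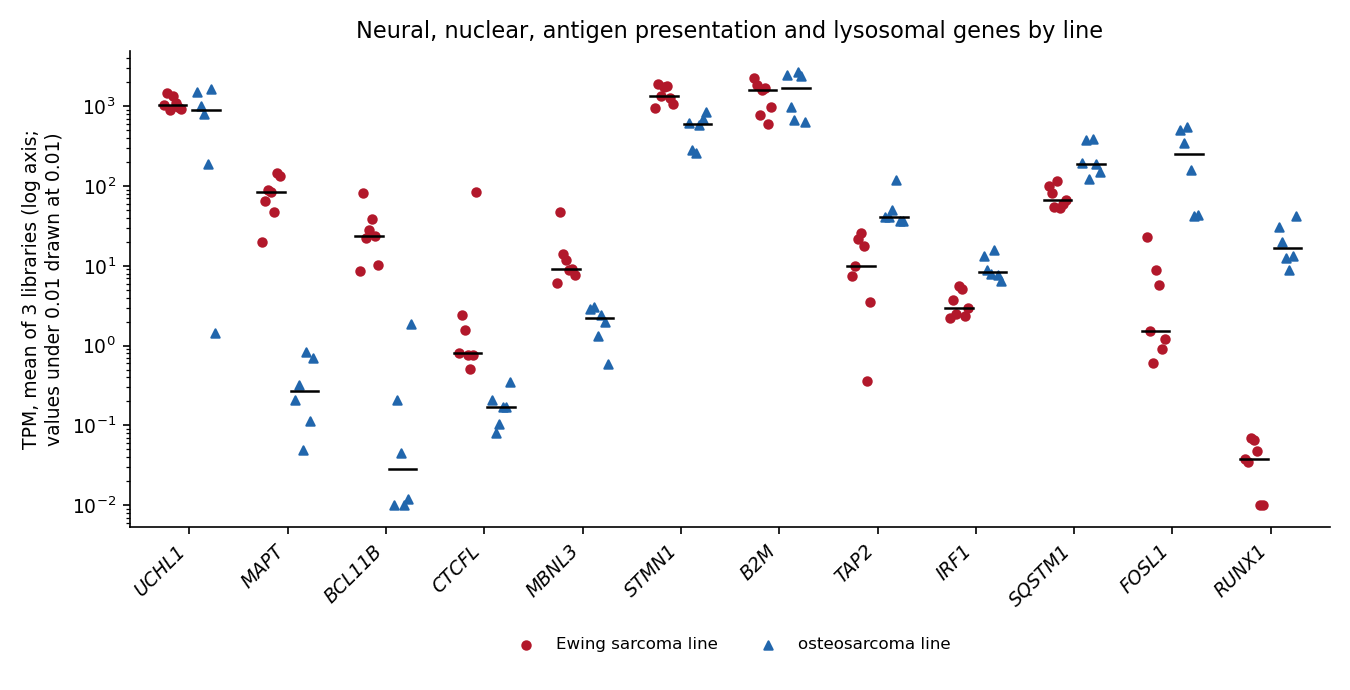
Each point is the TPM of 1 line (mean of 3 libraries) on a log axis, Ewing sarcoma lines as red circles and osteosarcoma lines as blue triangles, with a black bar at the median of each group. MAPT, BCL11B and RUNX1 show gaps between the groups, UCHL1 and B2M overlap, and TC71 stands above the other Ewing sarcoma lines for CTCFL.

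Among metabolic classes, lysosome and autophagy genes had 15 of 48 lower (31.2%), 1 higher and a median of -0.88. The number lower was 12 to 18 in the leave-out fits. Among them were membrane proteins (LAMP1, LAMP2), hydrolases (CTSA, CTSB, CTSD, CTSZ, HEXA), cholesterol exporters (NPC1, NPC2), the growth factor precursor GRN and autophagy genes (ATG7, SQSTM1, WIPI1). CTSB, a cysteine protease, ran at 41.2 to 139 TPM (median 76) against 81.5 to 1843 TPM (median 177), log2 fold change -3.22 ± 0.72, adjusted p = 0.0106, with G292 and MG63 far above the other osteosarcoma lines. LAMP2 ran at 27.5 to 58.8 TPM (median 41.5) against 52.9 to 137 TPM (median 87.6), adjusted p = 0.00538. WIPI1, which acts at the forming autophagosome, ran at 0.134 to 4.49 TPM (median 1.1) against 12.9 to 29.3 TPM (median 17.5), log2 fold change -3.55 ± 0.64, adjusted p = 0.00332. SQSTM1, the autophagy receptor p62, ran at 53 to 117 TPM (median 67.1) against 122 to 388 TPM (median 191), log2 fold change -1.79 ± 0.34, adjusted p = 0.00448. The gene that was higher was CTSK, the collagen-cleaving cathepsin of osteoclasts (1.83 to 69.8 TPM, median 12.6, against 0.892 to 3.52 TPM, median 1.96, adjusted p = 0.0162).

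Of 26 glycolysis genes 5 were lower (19.2% against 8.4% of all genes) and 1 was higher (3.85%, under 5.94%). Without MHHES1 or SKES1 the number lower was 3. HK1, the first enzyme of the pathway, ran at 6.9 to 82.3 TPM (median 18.1) against 111 to 143 TPM (median 129), log2 fold change -2.03 ± 0.56, adjusted p = 0.0297. The glucose transporter SLC2A1 ran at 21 to 44.5 TPM (median 29) against 41.5 to 269.9 TPM (median 84.5), adjusted p = 0.00992. PKM, the last enzyme, and the lactate exporter SLC16A3 were lower too, while LDHA was not called (541 to 1173 TPM, median 1067, against 743 to 1898 TPM, median 1177, adjusted p = 0.274). PFKM, the muscle phosphofructokinase, was higher by 0.74 on the log2 scale (88.6 to 121 TPM, median 96.7, against 39.9 to 88 TPM, median 51.6, adjusted p = 0.0348), but passed in only 5 of 13 leave-out fits. Respiratory chain genes had 4 of 74 higher, 5.41% and so no more than the 5.94% of all genes, and none lower, at a class median of 0.09, and 2 to 5 with a line left out. NDUFC1, a subunit of complex I, ran at 159 to 206 TPM (median 179) against 85.4 to 137 TPM (median 91.5), adjusted p = 0.019. ATP5F1B of the ATP synthase was not called (1069 to 1671 TPM, median 1543, against 668 to 1216 TPM, median 924, adjusted p = 0.273).

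Cholesterol and fatty acid genes were counted separately. Of 28 cholesterol genes 3 were higher (10.7% against 5.94% of all genes), among them the sterol reductase TM7SF2, and none was lower. HMGCS1 was not called (29.5 to 94.9 TPM, median 44.2, against 19.2 to 96.5 TPM, median 41.2, adjusted p = 0.795). Of 42 fatty acid genes 7 were lower (16.7%) and 2 higher (4.76%, under the 5.94% of all genes). The number higher was 1 to 3 with a line left out, and 8 lines moved it by over 1.5 times. PPARG, the regulator of fat storage, was lower (0.0665 to 1.89 TPM, median 0.217, against 9.89 to 185 TPM, median 39.7, log2 fold change -6.54 ± 0.91, adjusted p = 0.000765). FASN was not called (adjusted p = 0.48). PHGDH, the entry enzyme of serine synthesis, was higher without overlap (374 to 537 TPM, median 477, against 183 to 354 TPM, median 239, log2 fold change 0.82 ± 0.21, adjusted p = 0.0212). It was not called when all 39 libraries were fitted with line as a random effect, with or without the replicate block.

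Antioxidant genes were lower for 5 of 35 (14.3% against 8.4% of all genes) and higher for 1 (2.86%, under 5.94%). Without RDES or HOS-MNNG the number lower moved by over 1.5 times, to as few as 3. NQO1, a quinone reductase and NRF2 target, ran at 13.5 to 93.5 TPM (median 35.9) against 52 to 226 TPM (median 177), log2 fold change -1.87 ± 0.51, adjusted p = 0.0276. GCLM, a subunit of the enzyme that starts glutathione synthesis and another NRF2 target, ran at 11.6 to 30.8 TPM (median 26.5) against 31.9 to 118 TPM (median 71), adjusted p = 0.00419. AIFM2, the ferroptosis suppressor FSP1, ran at 2 to 10.8 TPM (median 5.29) against 19.8 to 36.6 TPM (median 23.5), log2 fold change -2.31 ± 0.31, adjusted p = 0.000526. GSR, glutathione reductase, was higher (62.6 to 125 TPM, median 81.9, against 25.4 to 55.5 TPM, median 44.7, adjusted p = 0.0318). NQO1 passed in 10 and GSR in 9 of 13 leave-out fits. With HOS-MNNG and KHOS summed to 1 sample, NQO1 was not called and 3 antioxidant genes were lower. Secretory pathway genes had 5 of 48 lower, 10.4% and so close to the 8.4% of all genes, and none higher. The count was 3 to 7 in the leave-out fits. CREB3L1, the factor that raises collagen secretion in osteoblasts, had wide ranges (0.178 to 21.5 TPM, median 0.862, against 1.06 to 339.8 TPM, median 29.1) and was not called (adjusted p = 0.0686). Without A673, the Ewing sarcoma line at 21.5 TPM, it was.

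Outside or across the classes, the largest differences in level were taken as the 8 called genes in each direction with the largest difference of mean TPM and no overlap. On the side higher in Ewing sarcoma lines stood STMN1, the microtubule destabiliser stathmin (958 to 1883 TPM, median 1340.4, against 257 to 847 TPM, median 598, log2 fold change 1.30 ± 0.21, adjusted p = 0.00198). FCGRT, the neonatal Fc receptor that recycles antibodies, differed 25.1-fold (168 to 1099 TPM, median 495, against 9.26 to 39.9 TPM, median 20, log2 fold change 4.65 ± 0.59, adjusted p = 0.000416). MARCKSL1, an actin-binding kinase substrate, the chaperonin subunit CCT3, the histone chaperone SET, the ATP synthase gene ATP5MC2 and ITM2A were also in this set. ATP5MC2 passed in only 6 of 13 leave-out fits and SET in 11. CCT3, for example, ran at 766 to 1106 TPM (median 973) against 419 to 622 TPM (median 464), adjusted p = 0.0114. The side lower in Ewing sarcoma lines held S100A6, S100A10, S100A4, ANXA2, COL6A2, CCN1 and TAGLN2, all described above, and MT1E. MT1E, a metallothionein that binds zinc and copper, ran at 0.0683 to 47.1 TPM (median 1.41) against 196 to 1494 TPM (median 913), log2 fold change -5.80 ± 1.30, adjusted p = 0.0104. It belongs to a family of near-identical genes, so its reads may be shared with its relatives.

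The smallest adjusted p values outside the classes belonged to genes with a median of at most 3.11 TPM in the lower type. RUNX1, a relative of RUNX2 best known in blood formation, stood at 0.00668 to 0.0702 TPM (median 0.0377) in Ewing sarcoma lines and 8.83 to 41.7 TPM (median 16.5) in osteosarcoma lines (log2 fold change -9.94 ± 0.68, adjusted p = 1.03e-05). AK5, an adenylate kinase, was lower in the same way (0.0847 to 0.281 TPM, median 0.195, against 10.3 to 25.1 TPM, median 20.6, log2 fold change -6.67 ± 0.49, adjusted p = 1.03e-05). The integrin signalling adaptor BCAR3 ran at 1.18 to 3.26 TPM (median 1.64) against 20 to 126 TPM (median 94.4), log2 fold change -5.75 ± 0.53, adjusted p = 4.8e-05. Also lower were the actin-binding genes SHROOM1 (adjusted p = 4.13e-05) and NEXN (adjusted p = 0.000154), and TRIM47, ALDH3B1 and LRP10. In the other direction UGT3A2, a glycosyltransferase, reached 202 to 568 TPM (median 319) against 0 to 0.384 TPM (median 0.106), log2 fold change 11.58 ± 1.04, adjusted p = 4.13e-05. NCKAP1L, the blood cell form of a WAVE complex subunit that nucleates branched actin, ran at 41.7 to 142 TPM (median 78.4) against 0.00811 to 0.141 TPM (median 0.032), log2 fold change 10.68 ± 0.75, adjusted p = 1.03e-05. RHOH, a small GTPase of blood cells, ran at 4.29 to 49.5 TPM (median 36.1) against 0.0242 to 0.156 TPM (median 0.0525), log2 fold change 8.49 ± 0.69, adjusted p = 2.38e-05. DCDC2, a doublecortin-family microtubule protein, ran at 4.28 to 31.4 TPM (median 14.8) against 0.0475 to 0.178 TPM (median 0.0835), log2 fold change 7.35 ± 0.61, adjusted p = 2.38e-05. The long non-coding RNA FAM238B (adjusted p = 2.38e-05) and PRRT4 (adjusted p = 4.13e-05) followed, with PRKCB and ADGRA1 beside them. The blood cell marker CD79A was higher in Ewing sarcoma lines too, as given above, and the part of such cells or genes in these values was not tested.

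Promoters of the genes called higher were also read for GGAAGGAA, 2 copies of the ETS core in a row, which the fusion protein is known to bind when repeated. It was present within 250 bases before the start in 3.53% of 962 promoters of genes called higher, 3.78% of 1375 called lower and 2.99% of all 15837. The 3 genes called higher with the largest fold change among holders of the motif were CYYR1, CSRNP3 and SHISA7. Each holds 1 copy, read here on the opposite strand, and no run of 3 copies is present in these windows. The copy is in capitals.
CYYR1 (chr21:26573454-26573536, minus strand): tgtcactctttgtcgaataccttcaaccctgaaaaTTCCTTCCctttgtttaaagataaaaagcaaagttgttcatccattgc
CSRNP3 (chr2:165572189-165572276, plus strand): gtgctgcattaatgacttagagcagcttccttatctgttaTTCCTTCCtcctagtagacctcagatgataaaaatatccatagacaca
SHISA7 (chr19:55443348-55443435, minus strand): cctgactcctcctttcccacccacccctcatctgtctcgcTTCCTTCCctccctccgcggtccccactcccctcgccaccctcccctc
The log2 fold changes of these genes were 5.97 for CYYR1 (adjusted p = 0.0237), 5.60 for CSRNP3 (adjusted p = 0.00222) and 5.17 for SHISA7 (adjusted p = 0.0192).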

How the data were processed

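RNA was taken from 13 parental lines with the NucleoSpin RNA Plus kit and made into libraries with the Illumina TruSeq Stranded mRNA kit, per the labels' protocols, 3 libraries a line. Per the submitters' processing notes the tools were fastp 0.19.5 and kallisto 0.46.2 with builds hg38 and GRCh38.p14. Their settings were not given in the sources used here. The authors deposited, for each library, an expected count (estimated reads), an effective length and a TPM value per RefSeq transcript. The effective length was used here in 1 alternative only.

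Of 177816 transcripts, 169966 matched a gene, and the 7850 others, which held 1.056 to 1.598% of the estimated counts, were left out. Counts were summed to 41582 genes and to lines and rounded to whole numbers. edgeR 4.0.16 was used (R 4.3.3): filterByExpr, TMM scaling and the quasi-likelihood F test of tumour type over 13 lines, with Benjamini-Hochberg adjustment over all 21970 genes tested; no covariate was fitted. The SE of a log2 fold change is its size divided by the square root of the F statistic.

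Genes were grouped in 47 functional lists and 7 marker lists, 1913 genes, of which 1672 were tested. The members and lists were chosen with earlier results of these data known, so counts in them are descriptions. Named by rule were a panel gene of each list, the largest called rise and fall of each class (average log2 CPM of at least 1, line TPM not overlapping; 2 each way in classes of 30 or more), the 8 called genes each way with the largest TPM difference, and the 8 each way with the smallest adjusted p outside the lists (log2 CPM of at least 3). Other class members named are examples picked after their values were seen. Replicate numbers were read from the titles. No library equalled another of its line within counting noise. Alternatives used DESeq2 1.42.0 and limma 3.58.1. Some genes named by these rules are not reported here; they remain in the fits and class counts.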

Additional observations from a re-analysis of the deposited data

Results flagged for a closer look

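In the named genes reported here, a line was examined where its gap to the nearest line of its type, on the log2(TPM + 1) scale, was large against the whole range of that type (above Dixon's 95% critical value). Of 298 groups, 29 (9.73%) held such a line, where chance alone gives about 1 in 20. Values below are mean TPM.

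Among Ewing sarcoma lines, A673 stood above the others for CD44 (7.32), CREB3L1 (21.5), THBS1 (8.38) and MYL9 (1.4). For CD44, THBS1 and MYL9 it stayed under the lowest osteosarcoma line. EW3 was low for HOXD13 (2.17) and high for MBNL3 (47.3) and PRKCB (233). EW24 was high for PPARG (1.89). Its BMP4 level (0.166) was a trace whose SD over the 3 libraries (0.223) exceeded it. SKES1 was high for ADAMTS3 (2.01) and VEGFC (0.0824). TC71 was high for CTCFL (83.5), MHHES1 for TRIM47 (1.04), and RDES was low for LDHA (541).

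Among osteosarcoma lines, U2OS was low for UCHL1 (1.43) and high for E2F2 (17.2), BCL11B (1.89) and AIFM2 (36.6). U2OS also held the highest traces of genes that were otherwise close to 0 in osteosarcoma lines: PCSK2 (0.468), GRP (0.418), ITM2A (0.483), PRKCB (0.132) and ADGRA1 (0.00641, a single estimated count). SAOS2 was high for ROS1 (75), SRSF12 (4.16) and IGF1 (0.172). MG63 was high for ADAMTS4 (3.32), GDF6 (21.6) and TAP2 (119).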

How the results depend on the processing

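Against 3151 genes called (1306 higher, 1845 lower), DESeq2 called 5385 (2344 higher, 3041 lower), of which 3070 were among the 3151. A threshold of 0.01 left 1164 (517 and 647), and a test against a log2 fold change of 1 left 1259 (538 and 721). With all 39 libraries in limma voom and line as a random effect, 4492 were called with the replicate block (2242 higher, 2250 lower) and 4560 without it (2263 and 2297); the share of calls that were higher went from 41.4% to 49.9% with the block. Deviations of libraries with the same number in different lines had a mean correlation of 0.0114, over 0.1 in 9 of 234 pairs and 0.269 at most. With different numbers the mean was -0.0057, over 0.1 in 10 of 468 pairs and 0.221 at most. No pairing across all lines was seen, but a batch shared by some lines was not tested. RLE and upper-quartile scaling, no filter on low counts, an effective length offset, and HOS-MNNG and KHOS summed to 1 sample (2782 called) kept all 3 counts within 1.5 times, as did leaving out a line (2296 without SKES1 to 3175 without MG63) or a replicate number (2823 to 2916). Of 128 named genes called, 114 were called in all 13 fits without 1 line, and none reversed. Values that reversed belonged to genes not called: GJA1 at 0.21 with the block and 0.20 without it, and, over fits without a line or replicate, GJA1 from -0.257 to 0.417, RPS6 from -0.341 to 0.115, FN1 from -1.134 to 0.851, B4GALNT1 from -1.591 to 0.255, HMGCS1 from -0.088 to 0.383, UCHL1 from -0.052 to 0.444 and PRAME from -0.548 to 0.086. RUNX2 was not called with the effective length offset, PHGDH and NOTCH2 with all 39 libraries and line as a random effect with or without the block, IL6 in that fit without the block, TAP2 with upper-quartile scaling or no filter, nor TAP2, NQO1, MCM6, SRSF12 and PFKM with HOS-MNNG and KHOS summed. With HOS-MNNG and KHOS summed, replication genes called higher went from 4 to 2 and cancer-testis antigens from 3 to 8. Log2 fold changes that moved by 2 or more without 1 line include MYL9 (-12.08), CD44 (-10.07) and CREB3L1 (-6.51) without A673, GDF6 (7.27) without MG63, CTCFL (2.96) without TC71, ROS1 (-2.52) without SAOS2, and PCSK2 (12.80), GRP (15.12), ITM2A (14.45) and BCL11B (8.74) without U2OS. CREB3L1 was called without A673, MCM2 without EW3 and BCL2 without G292. All 936 group medians of TPM recomputed without 1 replicate number moved by less than the SD between lines. Genes with under 100 estimated counts in one type (ELN, RUNX1, VEGFC, UGT3A2 and others) have log2 fold changes that depend on the prior count.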
